A study of Mus musculus with 4 samples.

Results

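The 4 mouse Hox clusters were followed across 4 single-colour Agilent arrays, 1 array per group. The members were all probes that the array design names Hoxa, Hoxb, Hoxc or Hoxd with a number. There were 44 such probes among 55681, for 39 protein-coding Hox genes among 36039 genes and for the antisense transcript Hoxa11as. The coding genes comprised 11 of the Hoxa cluster on chromosome 6, 10 of Hoxb on chromosome 11, 9 of Hoxc on chromosome 15 and 9 of Hoxd on chromosome 2. Of the 39, 38 could be read on every array. The single Hoxd11 spot carried an outlier flag on the AZA and CHQ arrays, and on the ES and ELA arrays, at log2 6.26 and 6.13, it was not well above background.

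All cells were of E14Tg2A, an established mouse embryonic stem (ES) cell line derived from the strain 129/Ola. The ES group was taken at day 0, in serum and leukemia inhibitory factor (LIF) on gelatin, with no treatment. The ELA group held epiblast-like aggregates at day 2, also untreated, in a chemically defined minimal medium with N2 and B27 without vitamin A. The authors take the cells of these aggregates as equivalent to primed pluripotent cells. The AZA group held aggregates grown in the same way with 50 nM 5-Azacytidine, an inhibitor of DNA methyltransferases, and the CHQ group aggregates with 100 µM 5-Carboxy-8-hydroxyquinoline, which blocks histone lysine demethylases. Each array carried RNA pooled from 3 experiments, so the spread between experiments cannot be seen, no p-value was computed, and every difference below is between single arrays. The ES and ELA arrays lay on 1 slide and the AZA and CHQ arrays on another. The effect of a treatment and the difference between slides therefore cannot be told apart, whereas ELA against ES and CHQ against AZA are comparisons within a slide.

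Hox genes encode homeodomain transcription factors that give cells along the body axis their positional identity. Within a cluster, genes with low paralog numbers are switched on first and reach furthest toward the head, and genes with high numbers follow later and more posteriorly. In ES cells the clusters are classical Polycomb targets, held silent but poised by bivalent chromatin that carries both the repressive H3K27 mark and the active H3K4 mark. Retinoic acid and the Cdx factors are known inducers of the clusters during gastrulation, and the TALE homeodomain proteins Pbx, Meis and Pknox are partners of Hox proteins on DNA.

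DNA methyltransferases act on CpG dinucleotides, and 4 Hox promoters are shown as examples of how far the genes differ in CpG content. After normalisation Hoxc4, Hoxb4 and Hoxd1 were higher on an AZA or CHQ array than on the ELA array, and Hoxd13 was well above background on all 4 arrays. Each sequence holds the 250 bases before the annotated start of the gene (RefSeq, build GRCm38.p6, plus strand), with the CG dinucleotides in capitals.
Hoxc4 (chr15:103034145-103034394): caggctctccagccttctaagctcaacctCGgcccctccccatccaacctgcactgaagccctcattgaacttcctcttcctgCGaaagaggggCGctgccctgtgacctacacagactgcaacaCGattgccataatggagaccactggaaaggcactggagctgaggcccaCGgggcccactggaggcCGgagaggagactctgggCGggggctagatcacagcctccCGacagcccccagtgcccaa
Hoxb4 (chr11:96318017-96318266): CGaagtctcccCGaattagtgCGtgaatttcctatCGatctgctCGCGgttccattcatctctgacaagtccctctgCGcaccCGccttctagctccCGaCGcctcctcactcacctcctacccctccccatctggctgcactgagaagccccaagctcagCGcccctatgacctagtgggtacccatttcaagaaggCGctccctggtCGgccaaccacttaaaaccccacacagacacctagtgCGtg
Hoxd1 (chr2:74762730-74762979): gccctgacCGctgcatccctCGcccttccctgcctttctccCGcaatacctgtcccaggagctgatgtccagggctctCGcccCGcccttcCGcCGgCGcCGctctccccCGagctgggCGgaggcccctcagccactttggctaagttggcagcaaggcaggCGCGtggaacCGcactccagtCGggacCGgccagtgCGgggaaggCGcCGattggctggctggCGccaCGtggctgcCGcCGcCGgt
Hoxd13 (chr2:74667975-74668224): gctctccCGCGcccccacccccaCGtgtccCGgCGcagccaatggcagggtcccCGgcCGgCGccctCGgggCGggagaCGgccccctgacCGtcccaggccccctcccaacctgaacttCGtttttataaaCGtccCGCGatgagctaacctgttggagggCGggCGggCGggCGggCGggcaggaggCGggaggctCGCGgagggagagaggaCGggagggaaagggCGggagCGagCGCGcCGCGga
These windows held 8 CpG in Hoxc4, 14 in Hoxb4, 24 in Hoxd1 and 31 in Hoxd13. The motif searched was CG, which reads the same on both strands. Over the 24 RefSeq promoter entries that matched 22 of the Hox genes, the median was 12.5 CpG (range 2 to 35), against 6 over 32851 promoters of the same length. A GC content of at least 50% with an observed to expected CpG ratio of at least 0.6 was met by 11 of the 24 (45.8%), against 31.0% of all promoters. The counts describe sequence, and methylation was not measured on these arrays. Coordinates of the array probes below are of build mm9 and are not comparable with those of the promoters.

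The clusters were dim on every array, and what the arrays allow to be said rests on how far a spot stood above its background. A spot was taken as detected when Feature Extraction marked it as well above background. On the ES array 10 of 44 Hox probes (22.7%) were detected, against 59.7% of all gene probes. On the ELA array there were 7 of 44 (15.9%), against 53.9%. The AZA array had 24 of 43 (55.8%), against 68.4%, and the CHQ array 20 of 43 (46.5%), against 68.4%. In what follows, 4 values in a row are given in the order ES, ELA, AZA, CHQ and are log2 intensities unless said otherwise. Counted by gene over the 38, ES had 9 detected, ELA 6, AZA 22 and CHQ 19. The median normalised log2 intensity of the 38 genes was 6.49, 6.35, 6.59 and 6.48 in ES, ELA, AZA and CHQ, where the median over all genes was 7.74, 7.71, 7.77 and 7.78.

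The local background was lower on the slide with more detected probes. Its median was 59 intensity units on the ES array and 77 on ELA, but 14 on AZA and 13 on CHQ. The lowest detected log2 value was 6.51, 6.74, 6.41 and 6.43 on the 4 arrays. The part of the lower background in the larger number of detected Hox genes was not tested. Among the 28 Hox genes detected neither in ES nor in ELA, 7 (25%) were detected with both AZA and CHQ. Over all 11605 genes detected neither in ES nor in ELA that share was 17.4%, so gaining detection on the treated slide was common across the array.

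**Figure D1:**
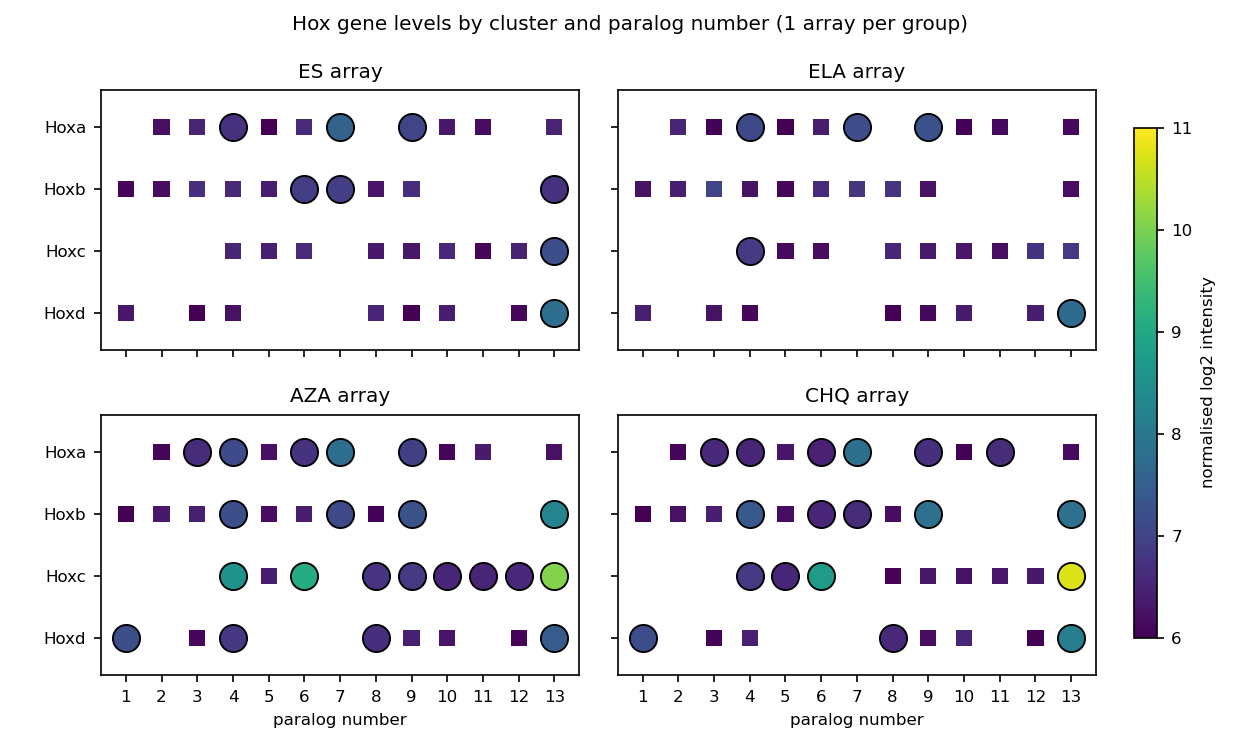
Normalised log2 intensity (colour) of Hox genes read on every array, by cluster (rows) and paralog number (horizontal axis), with 1 panel per array; circles are probes well above background, small squares are not, and colour is to be compared between panels for the same gene. The treated panels hold more circles than the untreated ones, with AZA most clearly in the Hoxc row. Hoxc13 is brighter in both treated panels, at 10.07 with AZA and 10.73 with CHQ against 6.84 in ELA.

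By cluster, the count of detected genes rose most for Hoxc with AZA, whereas from ELA to CHQ it rose most for Hoxb. Of the 9 Hoxc genes, ES and ELA had 1 detected each, AZA 8 and CHQ 4. In Hoxa the counts were 4, 4, 6 and 7 of 11, in Hoxb 3, 0, 4 and 5 of 10, and in Hoxd 1, 1, 4 and 3 of the 8 that could be read. The genes detected on AZA and not on the other 3 arrays were Hoxc8, Hoxc9, Hoxc10, Hoxc11, Hoxc12 and Hoxd4, which are neighbours in the middle and 5′ part of Hoxc except for the last. The scanner signal of each of these 6 genes was lower with AZA than in ELA, and so was the local background. For Hoxc8 the signal was 60.5 with AZA against 108 in ELA, over a local background of 14 against 78. Hoxa11 and Hoxc5 were detected with CHQ alone. Hoxa3, Hoxa6, Hoxb4, Hoxb9, Hoxc6, Hoxd1 and Hoxd8 were detected with both treatments and on neither untreated array. Hoxc4 was detected in ELA, AZA and CHQ, Hoxb7, Hoxb13 and Hoxc13 in ES, AZA and CHQ, and Hoxb6 in ES and CHQ.

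On no array were 13 Hox genes detected, and they included early as well as late members. They were Hoxa2, Hoxa5, Hoxa10, Hoxa13, Hoxb1, Hoxb2, Hoxb3, Hoxb5, Hoxb8, Hoxd3, Hoxd9, Hoxd10 and Hoxd12. Hoxb1, one of the first Hox genes to be switched on at gastrulation, had 10 spots per array and so the best-measured background. Its mean was 6.06 ± 0.10 (SD of spots, n = 10) in ES and 6.24 ± 0.30 (n = 9) in ELA, against 5.98 ± 0.12 (n = 9) with AZA and 5.96 ± 0.16 (n = 10) with CHQ. No spot of Hoxb1 was well above background on any array.

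Hoxa4, Hoxa7, Hoxa9 and Hoxd13 were among the genes detected on all 4 arrays. Hoxd13, the most posterior Hoxd gene, needed for digits (chr2:74509248-74509307), had 7.78, 7.71, 7.42 and 8.11. Hoxa7, a trunk gene (chr6:52165626-52165685), had 7.56, 7.14, 7.80 and 7.82. Neither differed by 1 log2 unit between ELA and another array. Hoxa4 had 6.72, 7.09, 7.13 and 6.53, and Hoxa9, a regulator of blood progenitors, had 7.02, 7.25, 6.94 and 6.70, both highest in ELA or AZA and lowest with CHQ.

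The antisense transcript Hoxa11as, which overlaps Hoxa11 on the opposite strand, was detected on all 4 arrays, at 7.34, 7.35, 7.30 and 7.83. Hoxa11 itself, with 10 spots per array, had 6.17 ± 0.15 (SD of spots, n = 9) in ES and 6.14 ± 0.23 (n = 9) in ELA, against 6.35 ± 0.09 (n = 9) with AZA and 6.61 ± 0.04 (n = 8) with CHQ. All 8 of its usable CHQ spots were well above background and none on the other arrays, while the level itself stayed near the floor.

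From ES to ELA, the step into the primed state, most Hox genes stayed at or near background. A gene was called changed when it differed by at least 1 log2 unit, had a mean of at least 7.5 over both arrays and was detected on at least 1 of them. Of the 2 Hox genes bright enough to be called, Hoxd13 among them, 0 were changed, where 10.0% of all callable genes were. In the main processing the differences of the 38 genes had a median of -0.03 with 18 above 0, and the lowest was -0.52 (Hoxb13). Other processings spread these dim values further, with Hoxb13 at -1.34, Hoxd8 at -1.53 and Hoxa3 at -1.50 without an offset, and with Hoxb13 at -1.73, Hoxb8 at 2.78 and Hoxa2 at 2.47 under 75th percentile scaling. Probes detected on no array differed between the same arrays by -0.37 to 0.44 (5th to 95th percentile of 14188 probes). By region, the 8 anterior genes (paralogs 1 to 3) had a median of 0.26, the 15 central genes (4 to 8) -0.23 and the 15 posterior genes (9 to 13) -0.03.

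With AZA, 3 genes of the Hoxc cluster were called higher than in ELA. The other Hoxc genes differed from ELA by -0.18 (Hoxc12) to 0.49 (Hoxc9) in the main processing. With spike-in scaling they lay below ELA, from -0.73 (Hoxc12) to -0.11 (Hoxc9). Of 5 Hox genes that could be called, 3 were changed, all higher and all in Hoxc, where 25.6% of all callable genes were changed and 14.3% were higher. These were Hoxc13, Hoxc6 and Hoxc4. At 6.84, 6.16 and 6.86 in ELA, they reached the mean of 7.5 only through their AZA values, so the count is not read against the share over all genes. Without an offset, with 75th percentile scaling and in the authors' table Hoxc13 was the 1 Hox gene called with AZA, because the mean of Hoxc6 and Hoxc4 fell under 7.5 while their differences were larger than here. Without background correction Hoxc4 and Hoxc13 were called. At a difference of at least 2 the Hoxc4 call ended, and with both arrays required to be well above background Hoxc4 was the 1 gene called. With CHQ, 1 of 3 callable Hox genes was changed, Hoxc13, which was higher, where 26.6% of all callable genes were changed and 14.8% were higher. Hoxc13, undetected in ELA, reached the mean only through its CHQ value, so this count too is not read against the share, and with both arrays required to be well above background 0 were called. Both comparisons use the same ELA array, so an error on it would enter both alike. The raw signals given below come from the same spots, so they cannot reveal such an error.

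Hoxc13, the last gene of its cluster and a regulator of hair and nail keratins (chr15:102759058-102759117), had the largest differences in the main processing. Its log2 intensity was 7.18 in ES and 6.84 in ELA, against 10.07 with AZA and 10.73 with CHQ, and it was well above background on all arrays but ELA. The scanner signal was 158, 130, 1036 and 1739, over a local background of 60.5, 80, 14.5 and 15. The treated arrays thus exceeded both untreated ones before any normalisation. AZA minus ELA was 3.23, at least 9.35-fold higher, and CHQ minus ELA was 3.89, at least 14.8-fold higher. For such a bound the brighter value was divided by the lowest detected level on the dimmer array, unless the dim probe itself read higher than that level. Against ES, where the probe was detected, Hoxc13 was 7.39-fold higher with AZA and 11.7-fold higher with CHQ. These folds and bounds hold for the main processing alone, and spike-in scaling gave smaller log2 differences from ELA, of 2.88 with AZA and 3.43 with CHQ.

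Hoxc6, a thoracic patterning gene (chr15:102842243-102842302), was the second in the main processing. It had 6.59 in ES and 6.16 in ELA, against 9.08 with AZA and 8.75 with CHQ, detected with the treatments alone. The scanner signal was 107, 93.0, 505 and 412. AZA minus ELA was 2.92, at least 5.06-fold higher. CHQ minus ELA was 2.59, at least 4.03-fold higher, but its mean over both arrays lay just under 7.5, so it was not called with CHQ. The treated arrays were well separated from the untreated ones, and lay close to each other, with CHQ minus AZA at -0.33. The order of Hoxc6 and Hoxc13 depended on the processing. With AZA, Hoxc6 exceeded Hoxc13 without an offset (4.62 against 3.99), with 75th percentile scaling (5.45 against 4.32) and in the authors' table (4.61 against 3.90). With CHQ it did so with 75th percentile scaling (5.04 against 4.98).

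Hoxc4, the 3′ end of the cluster and expressed from the neck downward (chr15:102867213-102867272), set the treatments apart. It had 6.52 in ES and 6.86 in ELA, against 8.56 with AZA and 6.82 with CHQ, and was detected on all arrays but ES. AZA minus ELA was 1.70, a 3.24-fold difference, while CHQ minus ELA was -0.04. The scanner signal was 102, 138, 337 and 69.6. Within the slide of the treated arrays Hoxc4 was lower with CHQ than with AZA by 1.74. It was the only 1 of 8 callable Hox genes that changed, where 10.3% of all callable genes were changed and 4.81% were lower. Hoxc4 reached the mean of 7.5 only through its AZA value, so this count is not read against the share. The Hoxc4 call was lost under 4 other normalisations, where the difference was larger and the mean level under 7.5. Transcription units within Hoxc overlap, and a probe reads any transcript that holds its target.

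**Figure D2:**
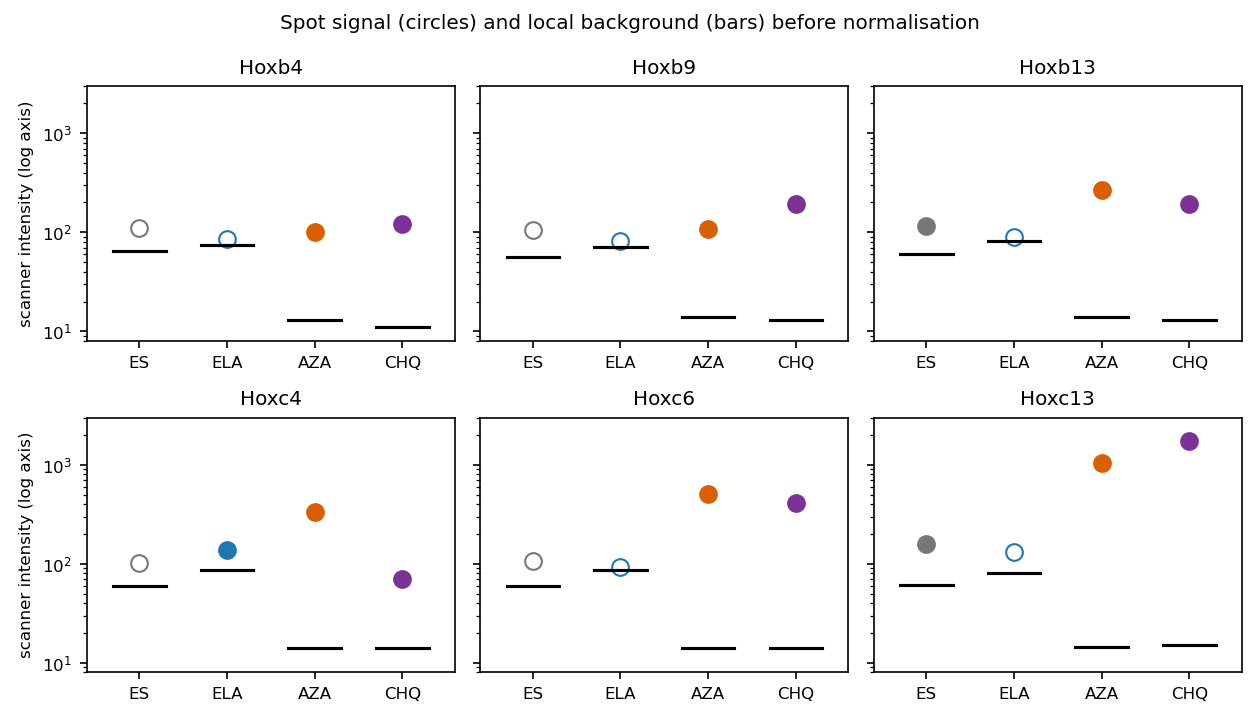
Scanner intensity of the spot (circles) and of its local background (bars), before normalisation, on a log axis, for the 6 Hox genes at least 1 log2 unit from ELA with AZA or CHQ; filled circles were well above background. The Hoxc13 signal is 1036 with AZA and 1739 with CHQ against 130 in ELA, whereas for Hoxb4 the signals differ little and the background is lower on the treated slide.

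Just outside the call stood members of Hoxb. Hoxb13, the 5′ end of its cluster and best known from prostate (chr11:96057854-96057913), had 6.71 in ES and 6.19 in ELA, against 8.28 with AZA and 7.85 with CHQ. AZA minus ELA was 2.09, at least 2.91-fold, and CHQ minus ELA was 1.67, at least 2.16-fold, with a mean under 7.5 in both. Its scanner signal of 268 with AZA and 195 with CHQ exceeded the 117 of ES, and in ELA the spot stood close to its local background of 82. Hoxb9, a thoracic gene (chr11:96137748-96137807), had 6.63, 6.22, 7.27 and 7.85, and CHQ minus ELA was 1.63, at least 2.16-fold, but 1.02 with spike-in scaling. Its scanner signal was 106, 81.4, 107 and 194, so with AZA the spot was about as bright as in ES. Hoxb4, a regulator of blood stem cells (chr11:96182885-96182944), had 6.55, 6.24, 7.21 and 7.38. For Hoxb4 the scanner signal was 110, 85.3, 99.6 and 123, over a local background of 65, 74, 13 and 11, so the arrays overlapped in scanner signal and differed in background. Taken by size alone in the main processing, with no filter on dim probes, 5 Hox genes were higher than ELA with AZA (Hoxb9, Hoxb13, Hoxc4, Hoxc6 and Hoxc13). With CHQ 5 were higher (Hoxb4, Hoxb9, Hoxb13, Hoxc6 and Hoxc13), and with either treatment 0 were lower. In other processings dim genes fell further, as with Hoxb8 and Hoxa2, detected on no array. Their AZA minus ELA was -2.06 and -1.42 without an offset, and -3.83 and -3.50 with 75th percentile scaling. Over all genes, size alone put 9.52% higher with AZA and 9.84% higher with CHQ.

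A further 7 Hox genes detected with a treatment stood closer to ELA in the main processing. Hoxd1, which acts in pain-sensing neurons (chr2:74603000-74603059), had 6.30, 6.44, 7.20 and 7.16, detected with the treatments alone. Its scanner signal was 88.0, 102, 98.4 and 99.1, over a local background of 59, 78, 12 and 12, so it was no brighter on the treated arrays than in ELA before normalisation. Hoxd4 had 6.22, 6.09, 6.80 and 6.45, and Hoxd8 had 6.53, 6.04, 6.69 and 6.58. Hoxa3, a gene of the pharyngeal arches, had 6.51, 6.03, 6.62 and 6.56, and Hoxa6 had 6.60, 6.37, 6.73 and 6.46. Hoxb7 had 6.91, 6.78, 7.10 and 6.62, and Hoxb6 had 6.89, 6.60, 6.38 and 6.52. In the main processing, whose offset of 50 draws dim values together, each of these 7 genes differed from ELA by less than 1 log2 unit. Without an offset, with 75th percentile scaling and in the authors' table, AZA minus ELA was 1.46, 2.81 and 1.35 for Hoxd1. In the same order it was 1.84, 1.79 and 1.83 for Hoxd4, 1.87, 1.43 and 1.71 for Hoxd8, and 1.76, 1.21 and 1.59 for Hoxa3. With spike-in scaling these 4 lay between 0.02 and 0.22 with AZA, so whether they passed 1 log2 unit depended on the processing. CHQ minus ELA of Hoxd1, Hoxd4, Hoxd8 and Hoxa3 was 1.39, 1.10, 1.65 and 1.61 without an offset. With spike-in scaling it was 0.06, -0.39, -0.16 and -0.18, so with CHQ the direction of all but Hoxd1 depended on the processing too. The SD of a difference between repeated spots with a mean log2 under 7 was 0.28 on the ELA array.

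**Figure D3:**
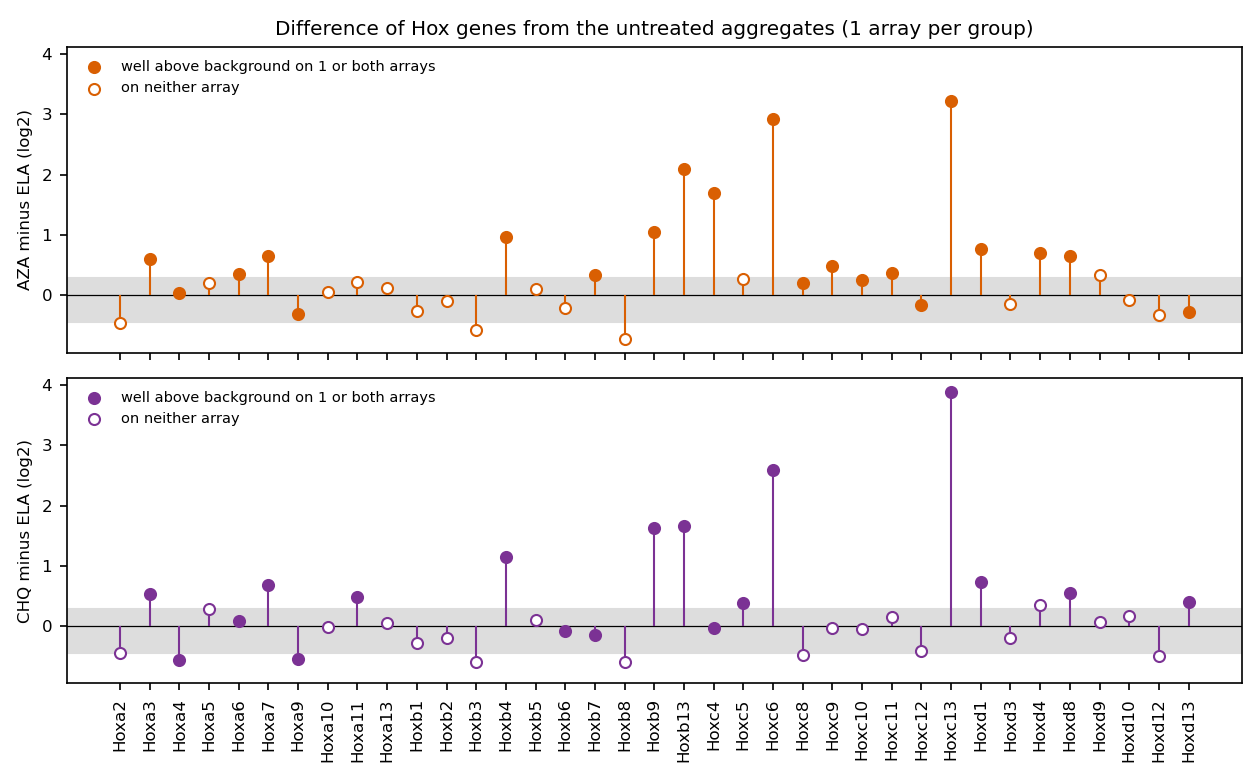
Log2 difference of Hox genes from the ELA array, with AZA (top) and CHQ (bottom); filled points were well above background on 1 or both arrays, open points on neither, and the grey band is the 5th to 95th percentile of probes detected on no array (-0.45 to 0.28 for AZA, -0.46 to 0.29 for CHQ). Hoxc13, Hoxc6 and Hoxb13 stand above the band in both panels, as do Hoxb9, Hoxb4, Hoxd1, Hoxa7, Hoxd8, Hoxa3 and Hoxd4 at smaller differences, while Hoxc4 is above it in the upper panel and inside it in the lower. Hoxb8, Hoxb3 and Hoxa2, detected on no array, lie below the band in both panels. Hoxa4, Hoxa9, Hoxc8 and Hoxd12 lie below it in the lower panel.

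The 38 measured Hox genes had a median AZA minus ELA of 0.23 and a median CHQ minus ELA of 0.06. The 25 detected on at least 1 array had 0.49 and 0.35, against -0.02 and -0.03 over all detected genes. However, 15 of the 25 were detected on treated arrays alone and so were chosen through those arrays. For AZA the median of the 25 was 0.92 without an offset, 1.01 with 75th percentile scaling and 0.95 in the authors' table. Scaling to 7 spike-in probes gave -0.11 and -0.35 for the 25, where the median over all detected genes moved to -0.37 and -0.50. Among the 22 genes detected on the AZA or ELA array 19 were higher with AZA, and 12 of the 19 were higher under each of 6 ways of processing the arrays. Among the 19 detected on the CHQ or ELA array 13 were higher with CHQ, 8 of them under each of the 6. Detection itself favours a rise here, since most of these genes were detected only on the treated array, where the local background was lower. Hoxc13, Hoxc6 and Hoxb13 with both treatments and Hoxc4 with AZA were higher than ELA in all 6.

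**Figure D4:**
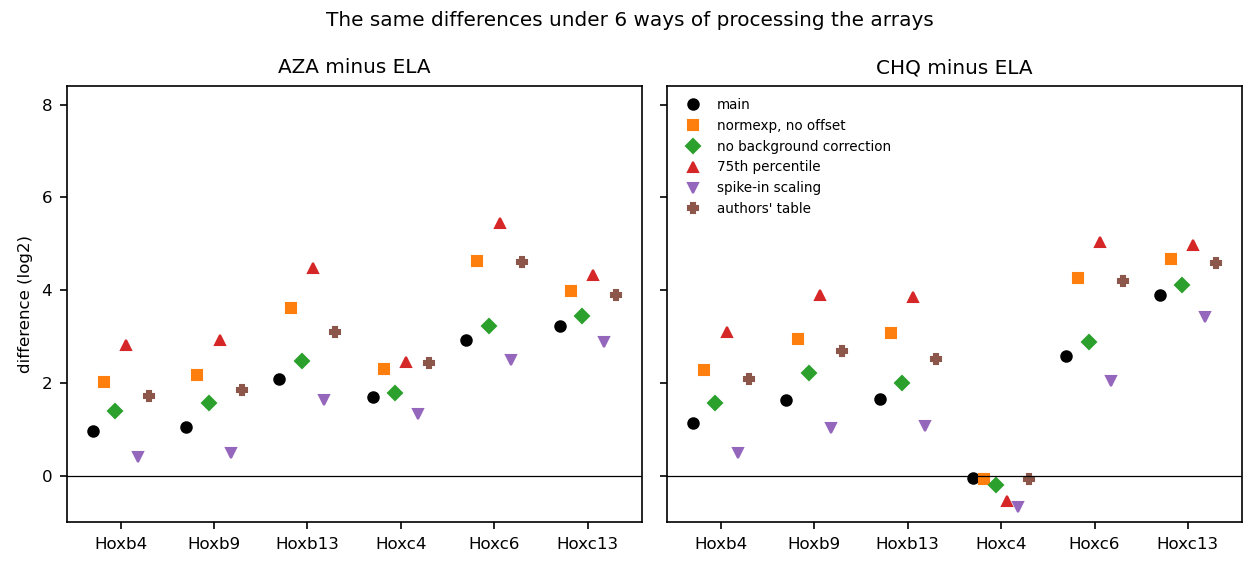
Log2 difference from ELA of the 6 Hox genes at least 1 log2 unit from it with AZA (left) or CHQ (right), under the main processing and 5 other normalisations (symbols). Hoxc13 stays between 2.88 and 4.32 with AZA and between 3.43 and 4.98 with CHQ, Hoxb4 and Hoxb9 with AZA lie under 0.5 with spike-in scaling, and Hoxc4 with CHQ lies below 0 throughout.

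Along Hoxc, large and small differences alternated in the main processing. The probes of Hoxc13 and Hoxc4 lie 108 kb apart, and Hoxc6 lies 83.2 kb from Hoxc13. Between Hoxc13 and Hoxc6, AZA minus ELA was -0.18 for Hoxc12, 0.36 for Hoxc11, 0.25 for Hoxc10, 0.49 for Hoxc9 and 0.20 for Hoxc8. With CHQ the differences of the same genes lay between -0.49 and 0.15. Their levels with AZA, where all 5 were detected, ran from 6.54 (Hoxc11) to 6.84 (Hoxc9). Hoxc5, only 5.54 kb from Hoxc6 by its probe, had 0.27 with AZA and 0.39 with CHQ. Other processings moved some of these values, with Hoxc9 at 1.08 with AZA without an offset and 1.78 with 75th percentile scaling, Hoxc11 at 1.01 and 1.00, and Hoxc8 with CHQ at -1.49 and -2.92. Hoxc6 thus had Hox neighbours near the floor on both sides.

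**Figure D5:**
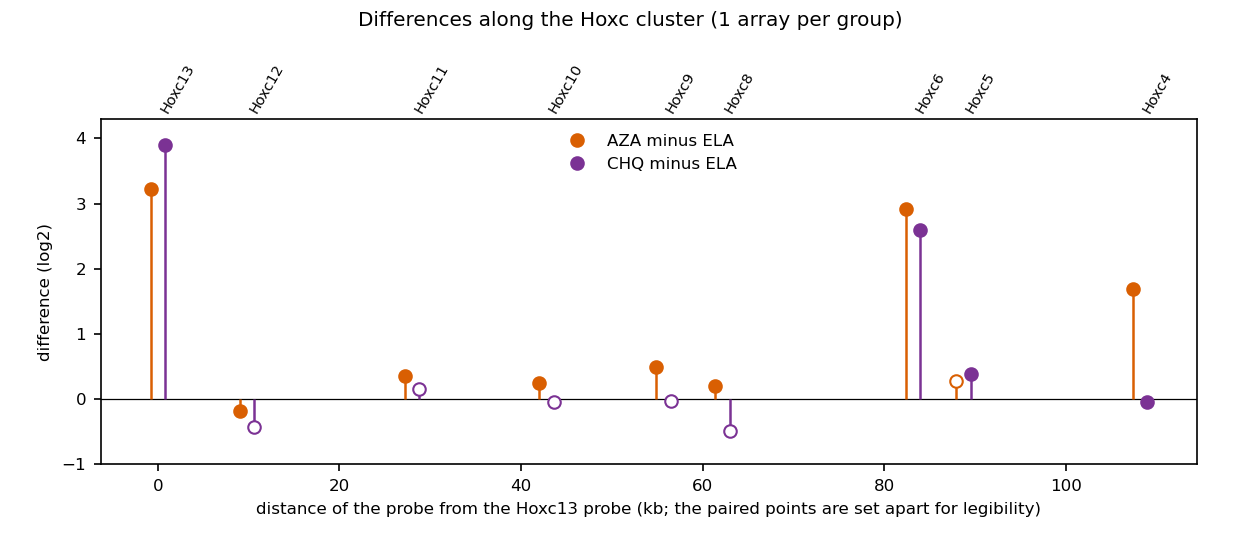
Log2 difference from ELA with AZA and CHQ for the 9 Hoxc genes against the distance of each probe from the Hoxc13 probe in kb; filled points were well above background on 1 or both arrays. Hoxc13, Hoxc6 and, with AZA, Hoxc4 stand out at 0, 83.2 and 108 kb, and in the main processing, plotted here, the genes between them lie within 0.5 of 0.

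The long noncoding RNA HOTAIR, known to be transcribed from within Hoxc and to bind Polycomb proteins, was carried by 5 probes within chr15:102774511-102775064, between the probes of Hoxc12 and Hoxc11. One of them was detected on every array, at 7.62 in ES and 7.57 in ELA, against 7.28 with AZA and 7.20 with CHQ, and the other 4 on none. Across all clusters, the anterior genes had a median of -0.13 with AZA and -0.20 with CHQ, the central genes 0.33 and 0.09 and the posterior genes 0.22 and 0.07. With AZA 3 of 8 anterior, 13 of 15 central and 10 of 15 posterior genes were above ELA, and with CHQ 2, 9 and 9. These counts include undetected genes and carry no test. By cluster, the median with AZA was 0.20 in Hoxa, 0.00 in Hoxb, 0.36 in Hoxc and 0.13 in Hoxd, and with CHQ 0.04, -0.11, -0.03 and 0.25.

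Genes beside the clusters were read from the order in RefSeq, 4 protein-coding genes on each side of each cluster, a set chosen after the values were seen. Of 32 such genes 31 were on the array. With AZA 3 of 26 callable genes were higher and 1 lower, and with CHQ 4 of 26 were higher and 0 lower, both under the 25.6% and 26.6% of all callable genes that were changed, with medians of 0.03 and -0.09. The largest differences lay beside Hoxb13. Ttll6, a tubulin polyglutamylase and the next gene, had 8.68 in ES and 7.46 in ELA, against 11.65 with AZA and 12.99 with CHQ, while at a second probe AZA and CHQ exceeded ELA by 1.73 and 3.20. Calcoco2, an autophagy receptor and the gene after it, had 11.46, 7.97, 11.43 and 10.16, with an ELA minus ES difference of -3.49 within 1 slide. Evx1, a homeobox gene at the Hoxa13 end of its cluster, had 8.07, 6.33, 7.48 and 6.54, and Evx2, at the Hoxd13 end, was detected on no array. Calcoco1, the next gene beyond Hoxc13, had 8.59, 8.97, 8.79 and 9.09 and differed from ELA by less than 0.4 with either treatment.

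Of the 9 TALE cofactor genes, all were detected on every array. By the size rule 1 was higher than ELA with AZA and 4 were lower, and the counts were the same with CHQ, where 25.6% and 26.6% of all callable genes were changed, with list medians of -0.28 and -0.09. Pbx3 had 11.07 in ES and 12.63 in ELA, against 9.97 with AZA and 10.75 with CHQ. Pbx2 differed from ELA by -1.39 with AZA and -1.82 with CHQ, and Meis3 by -1.41 and -1.62. Pknox2 went the other way, by 1.55 and 2.19. Between ES and ELA, Pbx3 was higher in ELA by 1.56 and Meis1 was lower (-1.12). The list median was 0.29, and -0.23 with spike-in scaling, where all detected genes had a median of -0.52.

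Of the Cdx and ParaHox genes, upstream activators and relatives of the clusters, 3 of 6 were detected in each of ES, ELA and AZA and 4 with CHQ. Cdx1 was lower in ELA than in ES (-1.07), and by the size rule 0 of 2 callable genes were changed from ELA with AZA and 0 of 1 with CHQ, where 25.6% and 26.6% of all callable genes were. Cdx1 was above ELA by 0.86 with AZA, and by up to 1.29 in another processing. Of 19 genes of retinoic acid transport, synthesis, breakdown and reception, 14 could be called with AZA, of which 3 were above and 2 below ELA, and 15 with CHQ, of which 4 were above and 3 below, where 25.6% and 26.6% of all callable genes were changed, with list medians of 0.04 and 0.10. Crabp2, which carries retinoic acid to its receptors, had 13.21 in ES and 15.61 in ELA, against 13.34 with AZA and 11.60 with CHQ. Cyp26b1, which degrades retinoic acid, had 6.83, 6.95, 8.86 and 10.69. Aldh1a1, which makes it, had 7.03, 6.70, 7.21 and 10.05.

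Polycomb subunits hold the clusters silent. With AZA 4 of 28 callable subunits were above ELA by the size rule and 2 below, and with CHQ 3 of 29 were above and 3 below, where 25.6% and 26.6% of all callable genes were changed, with list medians of 0.17 and 0.08. Phc1, a subunit of the PRC1 complex, differed from ELA by 1.55 and 2.10, and Cbx2, which reads the H3K27 mark, by -1.88 and -2.49. Phf19, a PRC2 partner, differed by 2.19 with AZA and 0.66 with CHQ. Of the H3K27 demethylase and Trithorax genes, 1 of 10 callable was higher with AZA and 2 of 9 with CHQ, where 25.6% and 26.6% of all callable genes were changed, with list medians of 0.26 and -0.01. Kdm6b, an H3K27 demethylase, differed by 0.56 with AZA and 1.07 with CHQ, and Ash2l by 1.27 and 1.18. The CHQ values of both fell under 1 log2 unit in another processing, to 0.87 and 0.63 at the lowest.

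Markers of the cell types the cultures could hold were read beside these values. All 8 pluripotent cell markers were detected on all arrays, and their summed log2 levels of 119.5, 108.7, 118.9 and 111.0 were lowest in ELA, while their normalised intensities summed on the linear scale, 290413, 184188, 313911 and 167389, were lowest with CHQ. The 4 primed epiblast markers, also detected throughout, had sums of 58.7, 64.0, 58.5 and 61.8, highest in ELA. Of 8 markers of posterior mesoderm and axial progenitors, tissues in which Hox genes are normally on, ES had 4 detected, ELA 3, and AZA and CHQ 6 each, with summed log2 levels of 56.8, 57.1, 58.6 and 58.3. T, the defining one, had 7.01, 6.98, 7.31 and 6.53. Mesp1, a factor of early mesoderm, had 6.78, 5.93, 7.75 and 7.89, detected with the treatments alone. Its differences from ELA, 1.82 with AZA and 1.96 with CHQ, are not exact, since the probe was not detected in ELA. Tbx6 was above ELA by 0.20 and 0.93, and Mixl1 differed by -0.11 and 0.63. The other 4 differed from ELA by -0.76 to 0.20 with AZA and by -0.92 to 0.03 with CHQ. By the size rule 0 of 2 callable markers were changed with either treatment, where 25.6% and 26.6% of all callable genes were. Of 5 primitive endoderm markers, 2, 2, 5 and 5 were detected, with sums of 33.3, 37.0, 36.5 and 41.8. Gata6 had 6.41, 6.69, 8.06 and 9.89 and Sox17 had 6.37, 6.76, 7.76 and 9.51, both detected with the treatments alone and called higher with CHQ. Undetected in ELA, Gata6 and Sox17 reached the mean level needed for a call only through their CHQ values. Their calls are therefore not read against the share over all genes. Dab2 and Foxa2 went the other way, below ELA with AZA (-1.47 and -1.81) and with CHQ (-1.34 and -1.01). The 8 fibroblast markers gave 5, 5, 6 and 6 (sums 63.1, 67.0, 63.2 and 62.3), with Postn and Lum on no array. Col1a1 was above ELA with AZA by 1.30, whereas Col1a2, Twist1 and Dcn were below it (-1.87, -1.09 and -1.43), and with CHQ Thy1 and Dcn were below it (-2.31 and -1.26), as was Col1a2, at 7.57 against 9.56 in ELA. The 5 lateral mesoderm markers gave 4, 3, 4 and 4 (47.2, 44.9, 46.7 and 44.9), and the 6 neural markers 6, 6, 6 and 5 (59.1, 63.2, 53.6 and 56.0). Their part in the Hox values was not tested, and in such bulk samples a few cells with much Hox RNA cannot be told from many cells with little.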

How the data were processed

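RNA of 4 groups (ES, ELA, AZA and CHQ) was measured on 1 Agilent 60-base oligonucleotide array each, from 3 pooled experiments. Per the file headers, the deposited scanner files were made by the authors with Agilent Feature Extraction 10.7.3.1 (9.1 in the submitters' processing notes) and hold spot intensity, local background intensity and flags, not normalised between arrays. A second deposited table, of log2 values, came from the authors' own limma background correction and quantile normalisation and served as an alternative.

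Spot means were corrected with normexp (offset 50) and quantile-normalised over the 4 arrays (limma 3.58.1, R 4.3.3). Control spots were dropped after normalisation, and so were outlier-flagged spots. A gene was read from its brightest probe. Probe names were updated through RefSeq where the accession matched (26582 probes, all 44 Hox probes among them). The size rule is given with the results, and its script was tested on simulated data. The Hox members were all probes matching the name pattern. Members called changed were given in full, and the others as values, ranges or names. Of the other lists, at most 4 genes past the size rule were named. Members, lists and thresholds were chosen with earlier results of these data known. An array with a knockdown was not analysed here. Values of 1 Hox gene and of 1 gene of another list are not reported here, although both are in the counts and medians, and the first is not drawn.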

Additional observations from a re-analysis of the deposited data

How the results depend on the processing

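The result rests on 4 arrays without replicates and on probes close to background, so its precision is limited by signal over background. No paired analysis was possible because each group had 1 array, and for the same reason leaving out 1 array in turn gives no value. Of 60 values under 9 alternatives (change counts and list medians of the Hox genes), 40 stayed within the limits set for them. These limits were wide enough to hold a fall from 3 to 2 genes changed with AZA. They also held a move of the CHQ minus ELA median from 0.35 to 0.59. The ELA against ES counts among the 40 were 0 throughout, with 2 Hox genes callable in the main processing. No called direction reversed, although both treatment medians were below 0 under spike-in scaling, as the median over all detected genes was. Alternatives of normalisation leave the detection flags as they were.

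The count of Hox genes changed with AZA was 1 without an offset, with 75th percentile scaling and in the authors' value table (Hoxc13 in each), 1 when both arrays had to be well above background (Hoxc4) and 5 with no filter on dim probes. With CHQ the count was 5 with no filter and 0 with both arrays well above background. CHQ against AZA gave 0 without an offset, with 75th percentile scaling, with spike-in scaling, in the authors' table and at a difference of at least 2, while the Hoxc4 difference itself ranged from -2.99 to -1.74.

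The median of the detected Hox genes was -0.46 (no offset) and -0.47 (spike-in) for ELA against ES. In AZA against ELA it was 0.92 (no offset), 1.01 (75th percentile), -0.11 (spike-in) and 0.95 (authors' table). CHQ against ELA gave -0.35 (spike-in), and CHQ against AZA gave -0.63 (75th percentile). Spike-in scaling moved the median over every detected gene to -0.52 (ELA against ES), -0.37 (AZA against ELA), -0.50 (CHQ against ELA) and -0.16 (CHQ against AZA), and 75th percentile scaling moved it to -0.17 and -0.21 for the treatments against ELA. The share of calls that were higher with CHQ was 33.5% under spike-in and 42.0% under 75th percentile scaling. Relative to these shifts Hoxc13 and Hoxc6 stayed higher than ELA with both treatments, where Hoxc6 minus ELA ranged from 2.49 to 5.45 with AZA and from 2.05 to 5.04 with CHQ. The causes were not tested.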
